A study of Homo sapiens with 6 samples.

Results

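ATAC-seq uses the Tn5 transposase to cut and tag accessible DNA, and a peak is a region where such cuts pile up. The regions described here are 9756 ATAC-seq peaks at the ends of protein-coding genes that were listed after 24 h of T3 and in neither of the earlier lists. They were chosen by 3 conditions on the deposited peak lists: a peak of the 24 h list on chromosomes 1 to 22 and X, no vehicle or 6 h peak overlapping it by 50% or more of the shorter peak, and a summit no farther than 1 kb from the lower or upper boundary of a RefSeq protein-coding gene (GRCh38). They made up 16.2% of the 60299 peaks of the 24 h list on these chromosomes, 18.2% of the 53495 peaks found at 24 h alone, and 84.5% of the 11539 gene-end peaks of the 24 h list.

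All 6 samples were Nthy-ORI cells, an immortalised line from normal human thyroid follicular epithelium, starved of hormone for 24 h in phenol-red-free medium with charcoal-stripped serum. The groups were NaOH vehicle, labelled 6 h, 10 nM T3 (triiodothyronine, the active thyroid hormone) for 6 h, and 10 nM T3 for 24 h, with 2 samples in each. No 24 h vehicle group was used, so the effects of hormone and of time cannot be told apart. A single cell line stands for the tissue, and separate cultures for the 2 samples are not stated in the labels.

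The authors gave 1 list per group, made from both samples, so no test between conditions was possible and intervals (exact, 95%) cover counting error over peaks or genes only. The lists are of very unequal length, with 7103 peaks in vehicle, 12385 at 6 h and 60661 at 24 h, and hold 242, 1806 and 11539 gene-end peaks. The median distance between the summits of the 2 replicates was 180 bp in vehicle, 222 bp at 6 h and 46 bp at 24 h. With each list limited to its 7103 strongest peaks, the number of 24 h only gene-end peaks was 2204. Read depth is unknown, and how far list length, depth and replicate quality set the absence of a peak from the earlier lists was not tested. Absence from a list is therefore no evidence of closed chromatin.

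A gene's start is where RNA polymerase II begins transcription, and most starts of widely expressed genes lie in CpG islands, stretches rich in C, G and undepleted CG pairs that are often depleted of nucleosomes. Such promoters carry short motifs for general activators: the GC box bound by SP and KLF factors, the CCAAT box bound by NF-Y, the ETS core bound by factors such as GABPA, and the palindromic core of NRF1. Thyroid hormone receptors bind DNA as dimers, often with RXR, at paired AGGTCA half-sites, and remodelling complexes of the SWI/SNF family move nucleosomes at promoters and enhancers. The other gene boundary is where the transcript is cleaved and polyadenylated.

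The strand of a gene, and so which boundary is its start, was taken from the RefSeq promoter table (GRCh38.p14) for 15812 of 19974 protein-coding genes. To show what the peaks lie on, the 250 bases before the start are printed for 9 genes whose start has a 24 h only peak, 5′ to 3′ on the strand of the gene. Capitals mark matches, on either strand, to any of 11 short motifs. The GC box was searched as GGGCGG and the NF-Y box as CCAAT. The ETS core was written CCGGAAG, while GCGCATGC stood for the core bound by NRF1. The letters TGACGTCA are the CRE of CREB and ATF factors, and the E-box was CACGTG. For YY1 the search used AAGATGG, and for the TATA box it used TATAAA. The AP-1 site of JUN and FOS factors was TGANTCA, the nuclear receptor half-site was AGGTCA, and the TEAD core was CATTCC. None of the 11 contains another in full, and a match describes letters, not binding. The first 6 show different motifs at starts with strong peaks: POT1 (chr7:124929826-124930075, minus strand), which protects telomere ends, has 2 GC boxes and a CRE. EXOC4 (chr7:133252828-133253077, plus strand), an exocyst subunit that tethers secretory vesicles, has 2 CCAAT boxes, and TCTN3 (chr10:95693928-95694177, minus strand), a protein of the ciliary transition zone, has 3. ASNSD1 (chr2:189661209-189661458, plus strand) has 3 matches to the NRF1 core, 2 of them overlapping, 1 CCAAT box and 1 half-site. ZNF174 (chr16:3400965-3401214, plus strand), a zinc finger gene, has an ETS core, and GTF2B (chr1:88891568-88891817, minus strand), the general factor TFIIB, has a TATA box and an E-box. SMARCA4 (chr19:10960780-10961029, plus strand), the ATPase BRG1 of SWI/SNF, shows a CpG-dense start with 44 CG pairs in the printed stretch. TSHR (chr14:80955371-80955620, plus strand), the receptor for thyrotropin, and KLF9 (chr9:70414658-70414907, minus strand), a zinc finger factor known to respond to thyroid hormone, show starts that miss the high-CpG criterion, with 7 and 1 CG pairs.
POT1: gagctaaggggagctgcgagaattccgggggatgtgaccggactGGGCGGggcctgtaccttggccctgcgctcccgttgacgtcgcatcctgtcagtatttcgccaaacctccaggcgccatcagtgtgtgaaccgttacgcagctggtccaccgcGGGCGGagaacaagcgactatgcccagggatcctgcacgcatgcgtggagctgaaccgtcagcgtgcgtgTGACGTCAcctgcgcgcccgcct
EXOC4: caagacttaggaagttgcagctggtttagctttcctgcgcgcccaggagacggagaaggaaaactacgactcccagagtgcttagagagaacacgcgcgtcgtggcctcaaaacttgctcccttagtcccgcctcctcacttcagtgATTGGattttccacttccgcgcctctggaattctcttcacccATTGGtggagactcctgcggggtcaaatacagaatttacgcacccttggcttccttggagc
TCTN3: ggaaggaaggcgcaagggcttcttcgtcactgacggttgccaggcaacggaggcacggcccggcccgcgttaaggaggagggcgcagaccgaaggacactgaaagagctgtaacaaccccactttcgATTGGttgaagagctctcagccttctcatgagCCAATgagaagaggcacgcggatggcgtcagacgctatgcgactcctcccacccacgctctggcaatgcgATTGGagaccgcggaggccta
ASNSD1: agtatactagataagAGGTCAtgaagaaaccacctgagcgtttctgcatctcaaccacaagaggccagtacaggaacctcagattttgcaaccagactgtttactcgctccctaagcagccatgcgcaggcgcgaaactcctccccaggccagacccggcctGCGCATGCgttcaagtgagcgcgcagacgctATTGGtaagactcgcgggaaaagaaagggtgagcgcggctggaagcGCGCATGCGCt
ZNF174: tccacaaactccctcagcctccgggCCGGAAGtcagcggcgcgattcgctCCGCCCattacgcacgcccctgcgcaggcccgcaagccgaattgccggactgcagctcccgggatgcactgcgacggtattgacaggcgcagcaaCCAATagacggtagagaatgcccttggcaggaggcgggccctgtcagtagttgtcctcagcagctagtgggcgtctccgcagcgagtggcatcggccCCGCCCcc
GTF2B: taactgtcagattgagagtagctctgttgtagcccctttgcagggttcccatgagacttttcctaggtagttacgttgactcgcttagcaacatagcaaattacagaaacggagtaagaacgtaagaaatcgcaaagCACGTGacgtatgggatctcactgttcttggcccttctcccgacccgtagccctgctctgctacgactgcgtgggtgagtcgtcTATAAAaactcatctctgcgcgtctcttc
SMARCA4: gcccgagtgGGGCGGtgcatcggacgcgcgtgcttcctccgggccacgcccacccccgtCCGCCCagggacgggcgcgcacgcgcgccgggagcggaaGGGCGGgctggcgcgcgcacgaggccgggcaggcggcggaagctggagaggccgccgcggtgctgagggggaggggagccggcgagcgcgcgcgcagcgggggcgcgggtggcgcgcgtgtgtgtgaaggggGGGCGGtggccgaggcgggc
TSHR: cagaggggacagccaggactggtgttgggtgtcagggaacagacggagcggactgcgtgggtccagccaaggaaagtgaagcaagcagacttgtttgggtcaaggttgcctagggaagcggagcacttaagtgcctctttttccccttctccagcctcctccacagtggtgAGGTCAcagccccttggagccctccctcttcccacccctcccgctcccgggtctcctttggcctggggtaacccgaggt
KLF9: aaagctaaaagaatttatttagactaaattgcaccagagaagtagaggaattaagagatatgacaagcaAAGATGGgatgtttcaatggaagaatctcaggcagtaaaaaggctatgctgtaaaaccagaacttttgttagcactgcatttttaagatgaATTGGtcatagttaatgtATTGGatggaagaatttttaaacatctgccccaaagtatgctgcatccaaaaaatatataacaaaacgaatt

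For the first 7 of these genes the peak covered all 250 printed bases. For TSHR and KLF9 it covered none of them. The TSHR peak (chr14:80954767-80955294, signals 10.1 and 14.1 in the replicate columns) ended 76 bases short of the printed stretch, with its summit at -651.5 bp from the start. The KLF9 peak (chr9:70412813-70414509, signals 9.66 and 8.92) lay inside the gene, 148 bases from the printed stretch, with its summit 914.5 bp into the gene. Both genes thus count as having a 24 h only peak near the start without the peak reaching the bases just before it.

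The 24 h only gene-end peaks lay mainly at gene starts. The choice of peaks treated both boundaries alike, so the boundary was free to vary. Among the 7829 peaks whose boundaries all had a known strand, 6894 lay near a start only (88.1%, interval 87.3 to 88.8), 621 near an end only (7.93%, 7.34 to 8.55) and 314 near both (4.01%). Of the 19974 protein-coding genes 10148 had such a peak at either boundary, which is 50.8% of all genes. Of the 15812 genes of known strand, 49.5% had one at the start (7827 genes) and 6.43% at the end (1017 genes).

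Gene ends were a smaller part of the gene-end peaks that 24 h shared with an earlier list. Among the 1506 shared peaks of known strand, 94.4% lay near a start only and 2.92% (2.13 to 3.90) near an end only. In the 6 h list 6.25% (5.08 to 7.58) of the gene-end peaks lay near an end only, and in the short vehicle list 40 of 198 did (20.2%, 14.8 to 26.5). The lists differ in length and in the strength of what they include, and how far that sets these shares was not tested.

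Summits stood just upstream of the start. Over the 8193 pairs of a peak and a gene start, the median summit position was 37 bp upstream, with quartiles at 133 bp upstream and 146.5 bp downstream. The summit lay upstream in 59.6% of pairs (58.5 to 60.7) and within the 200 bp before the start in 43.9%. The fullest 100 bp bin was the one ending at the start, with 2285 pairs (27.9%), against 1013 (12.4%) in the first 100 bp of the gene. The profile was lopsided farther out, with 142 pairs between 900 and 1000 bp into the gene and 54 at the same distance upstream. The start itself was covered by the peak in 85.6% of pairs.

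Around gene ends no such pile-up was seen. The 621 end-only peaks gave 650 pairs, spread over the whole 2 kb with 48.3% (44.4 to 52.2) inside the gene. In the 200 bp centred on the end there were 23 pairs, or 3.54% (2.26 to 5.26), where an even spread would hold 10%. The 100 bp bins to either side of the end had 14 and 9 pairs, and the other bins had 22 to 45. Of the 621 peaks, 39 (6.28%) lay within 1 kb of some other start listed in the promoter table, where non-coding genes are included.

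**Figure D1:**
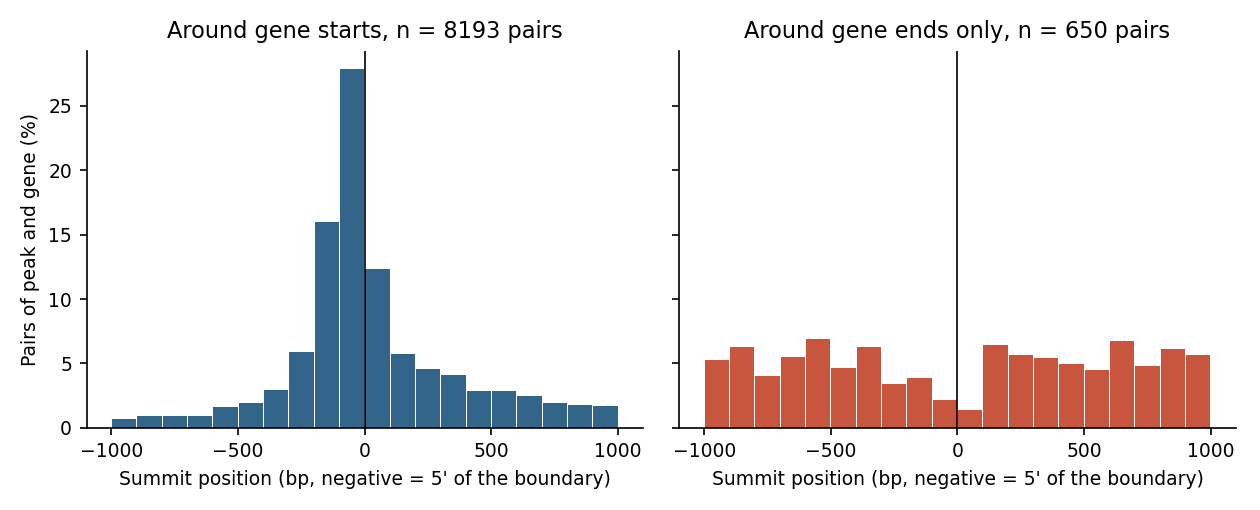
Position of the summit of 24 h only gene-end peaks relative to gene starts (left, 8193 pairs of peak and gene) and to gene ends for peaks with no start within 1 kb (right, 650 pairs), in 100 bp bins, as a percent of pairs. Negative positions are upstream of a start or inside the gene at an end. The start panel peaks at 27.9% just before the start, while the bins beside the end hold 2.15% and 1.38%.

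Signal differed between these positions in both replicate columns. The deposited signal is the authors' measure of peak strength per replicate, its scaling is not stated, and it is used only within the 24 h list. Peaks near a start only had a median of 7.85 in the first column and 9.05 in the second (6894 peaks), and end-only peaks had 5.43 and 5.63 (621 peaks). Start-only peaks were also wider, at a median of 918 bp against 639 bp. By summed signal the median was 18.1 for summits within 100 bp of a start, 18.2 from 100 to 250 bp, 15.7 from 250 to 500 bp and 12.7 from 500 to 1000 bp. The order of the 2 farther classes held in each column, with 7.45 and 8.02 from 250 to 500 bp and 6.29 and 6.47 beyond.

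The share of end-only peaks fell over 5 equal classes of the peaks by summed signal. It was 19.9% (17.9 to 21.9) among the weakest and then 9.96%, 5.88% and 2.62%. It was 1.34% (0.83 to 2.04) in the strongest.

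Across all 9756 peaks the median signal was 7.44 in the first column and 8.42 in the second, and the summed signal ran from 7.49 to 46.5 with a median of 16. The second column was the higher one in 69.5% of peaks, against 63.0% of the 24 h only peaks away from gene ends. Over these peaks, which are not independent and were kept for ranking alike in both columns, the columns had a Spearman rho of 0.76. Replicate summits lay a median of 49 bp apart, and 69.5% of peaks had them within 100 bp.

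**Figure D2:**
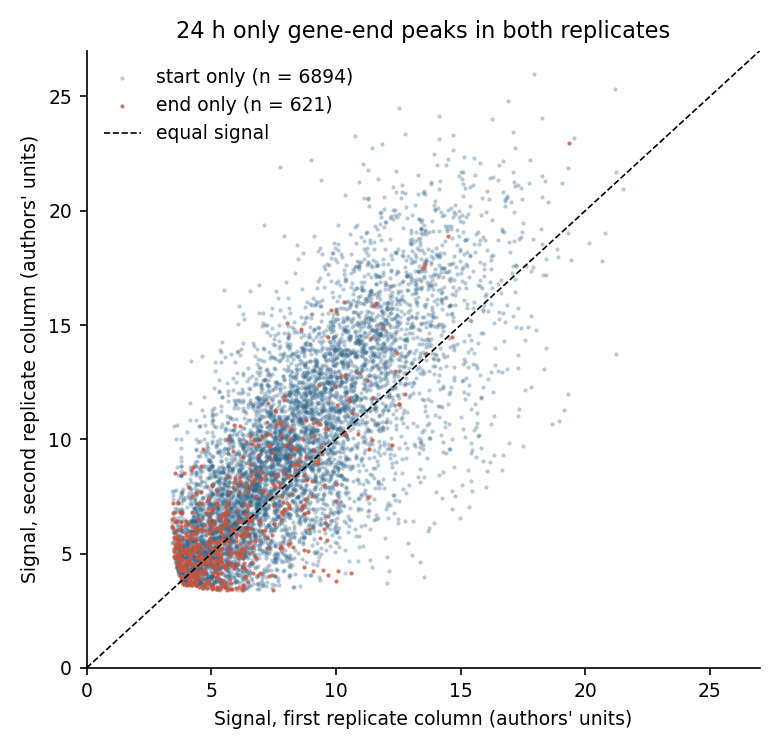
Signal of each 24 h only gene-end peak in the first (x) and second (y) replicate column of the 24 h list, in the authors' units, 1 point per peak, for peaks near a start only (blue, 6894) and an end only (red, 621). The dashed line marks equal signal. Most points lie above it, and end-only peaks crowd at the low end.

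Set beside other classes of the 24 h list, these peaks stood between the shared gene-end peaks and the 24 h only peaks elsewhere in signal, width and −log10 IDR. The shared peaks had to recur in the shorter 6 h list and the 24 h only peaks had to be absent from it. How far this choice sets the order was not tested. The 1600 gene-end peaks present at both T3 times and not in vehicle had column medians of 11.2 and 13.5 and a median width of 1109.5 bp. The highest deposited −log10 IDR was reached by 72.9% of them. The IDR is the irreproducible discovery rate, the authors' measure of whether a peak ranks alike in both replicates. For the 24 h only gene-end peaks these values were 7.44 and 8.42, 893 bp and 29.5%. The 21569 24 h only peaks inside gene bodies had 5.66 and 6.03, 607 bp and 12.9%, and the 22170 intergenic ones had 5.66 and 6.02, 613 bp and 13%. The interquartile ranges overlapped, at 11.5 to 21.6 in summed signal for the 24 h only gene-end peaks, 19.8 to 30.0 for the shared ones and 9.50 to 16.1 in gene bodies. Replicate summits did not follow this order. They lay a median of 49 bp apart in the 24 h only gene-end peaks, 45 bp in the shared, 43 bp in gene bodies and 45 bp in intergenic ones. Those within 100 bp made up 69.5%, 73.8%, 72.7% and 71.1% in turn.

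The 50% overlap rule mattered little for membership. Only 24 of the 9756 peaks (0.25%) shared any base with an earlier peak, 16 with a 6 h and 8 with a vehicle peak. The nearest 6 h peak was a median of 82048 bp away and the nearest vehicle peak 244562 bp, and 6.23% had a 6 h peak within 10 kb. Just inside the limit stood the peaks of NIPBL (49.6% of the shorter peak), PIK3CA (49.0%) and AKAP9 (48.9%), and just outside it those of PANK3 (50.3%), MATCAP2 with ANLN (50.4%) and DEGS1 (50.4%). At the distance limit, H4C8 (1000 bp), TAF12 (999 bp) and AGXT2 (998.5 bp) were the last inside, and POGZ, BLVRA and CNTFR, all at 1000.5 bp, the first outside.

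The strongest peaks by summed signal were mostly at gene starts. POT1 led with signals of 21.2 and 25.3 in the 2 columns. The peak between TCTN3 and ENTPD1, the latter an ectonucleotidase, had 18 and 26.0, and that of PIKFYVE, a lipid kinase of endosomes, had 21.2 and 21.7. ASNSD1 and ASDURF, which share a start, had 19.5 and 23.2. The peak of RAB2B, a small GTPase of membrane traffic, and the divergent TOX4 had 21.5 and 20.9. EXOC4 had 18.3 and 24.1, and TMBIM6, an inhibitor of cell death in the endoplasmic reticulum membrane, 16.9 and 24.8. Of the 12 strongest peaks 9 lay near a start, 2, CHD6 among them, near boundaries of unassigned strand, and 1, beyond the end of SCIN, near an end only. Among these 12 the second column was higher in 10, the exceptions being RAB2B with TOX4 and CHD6 (20.7 and 20.6).

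SCIN, which encodes the actin-severing protein scinderin, had a peak at each boundary. The one 452.5 bp past its end had signals of 19.4 and 23, and the one at its start, 23 bp upstream, had 10.2 and 10.2. The next strongest end-only peaks were those of ACSM6 (14.5 and 18.9), SMIM21 (13.6 and 17.7), ITGA10 (13.5 and 17.5) and GON4L (14.7 and 14.5). In all, 466 genes had separate 24 h only peaks at both boundaries. Those with the strongest weaker peak were ZC3H10 (29.5 at the start and 29.8 at the end, summed signal), ALKBH3 (31.5 and 28.9), TMX2 (29.6 and 28.5), SYT1 (31.7 and 27.3) and NEK11 (27.8 and 26.8).

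Most peaks and genes were paired singly: 8381 peaks lay near 1 gene, 1326 near 2, 46 near 3 and 3 near 4, and 9149 of the 10148 genes had 1 peak. SNAP25, a neuronal SNARE protein, had 5, the most of any gene, with summed signals from 9.16 to 17.2. Among the 7399 peaks near at least 1 start, 705 (9.53%) had starts on both strands, and in 525 of these the starts faced away from each other, as in bidirectional promoters. The distance between the starts was a median of 212 bp. These peaks had column medians of 8.85 and 10.2 and a width of 1050 bp, against 7.69, 8.84 and 904 bp for peaks near 1 start and no other gene. The widest peaks, from 2832 to 3218 bp, were those of SLC45A4, BCL2L11, ADGRA1, ST3GAL1 and SPRY1. BCL2L11, the cell death activator BIM, had 12.4 and 11.3 over 3162 bp. The narrowest, 134 bp, covered the start of ISCU, with a boundary of SART3 within 1 kb.

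Sequence content differed between starts with and without a peak. The promoter window of a gene held 250 bases before and 50 from the start. Of the 13257 genes whose start in the promoter table is the gene boundary, 6774 had a 24 h only peak there. A further 1538 had only a 24 h peak shared with an earlier list, and 4945 had no 24 h peak. Having a peak means a summit within 1 kb of the start: the 24 h only peak held the whole window in 65.5% (64.4 to 66.6) of 7096 pairs of peak and start. High CpG, a CpG ratio of at least 0.6 with at least 50% GC, was met by 84.7% (83.9 to 85.6) of the first, 86.7% (84.9 to 88.3) of the second and 28.8% (27.5 to 30.1) of the third class, and by 64.1% of all windows. Median GC was 66.0%, 63.0% and 55.0%.

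Several motifs were more frequent at starts with a peak than at starts without one. The ETS core CCGGAAG was in 20.2% (19.2 to 21.1) of the windows with a 24 h only peak, 25.2% of the shared ones and 3.84% of those without a peak, against 14.7% of all windows. The GC box GGGCGG was in 73.2%, 66.3% and 36.3%, and in 58.6% of all. GCGCATGC, the NRF1 core, was in 5.90%, 7.35% and 1.58%, and in 4.46% of all. TATAAA ran the other way, with 5.93%, 4.36% and 17.6%, and 10.1% of all. The AP-1 letters TGANTCA did too, with 4.35%, 3.97% and 8.37%, and 5.81% of all.

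The receptor half-site AGGTCA was in 9.06% (8.39 to 9.77) of the windows with a 24 h only peak, in 10.3% of the shared ones, in 15.8% (14.7 to 16.8) of those with no 24 h peak and in 11.7% of all. Within the high-CpG windows its share was 8.14%, 9.38% and 8.22% in the 3 classes, and the intervals overlapped. Among windows that miss the high-CpG criterion it was 14.2% (12.1 to 16.5), 16.1% (11.3 to 21.9) and 18.8% (17.5 to 20.1). There the intervals with a 24 h only peak and without a peak did not overlap. A single half-site of 6 letters is not a response element, and these windows say nothing of receptor binding.

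Because the windows differ in CpG content, the shares were also taken within high-CpG windows alone. There the ETS core stood at 22.2% (21.1 to 23.3) with a 24 h only peak, 27.2% (24.9 to 29.7) with a shared peak and 7.16% (5.88 to 8.63) without one. CCAAT stood at 36.3% (35 to 37.5), 45.5% (42.8 to 48.2) and 26.5% (24.3 to 28.9). AAGATGG, the YY1 core, stood at 8.01%, 9.15% and 3.37%, and the NRF1 core at 6.60%, 8.18% and 3.65%. The GC box was about as frequent with a 24 h only peak (80.1%, 79.1 to 81.2) as without a peak (82.1%, 80.0 to 84.1), and stood at 71.2% with a shared peak. TATAAA was close in the 3 classes, at 4.27%, 3.30% and 5.41%. Among windows that miss the criterion CCAAT was equally common with a 24 h only peak (39.0%) and without a peak (39.0%). The GC box was not, and in those windows it stood at 34.7% with a 24 h only peak and 17.7% without a peak. TATAAA also differed there, at 15.2% with a 24 h only peak and 22.5% without a peak. For both of these motifs the intervals with a 24 h only peak and without a peak did not overlap.

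**Figure D3:**
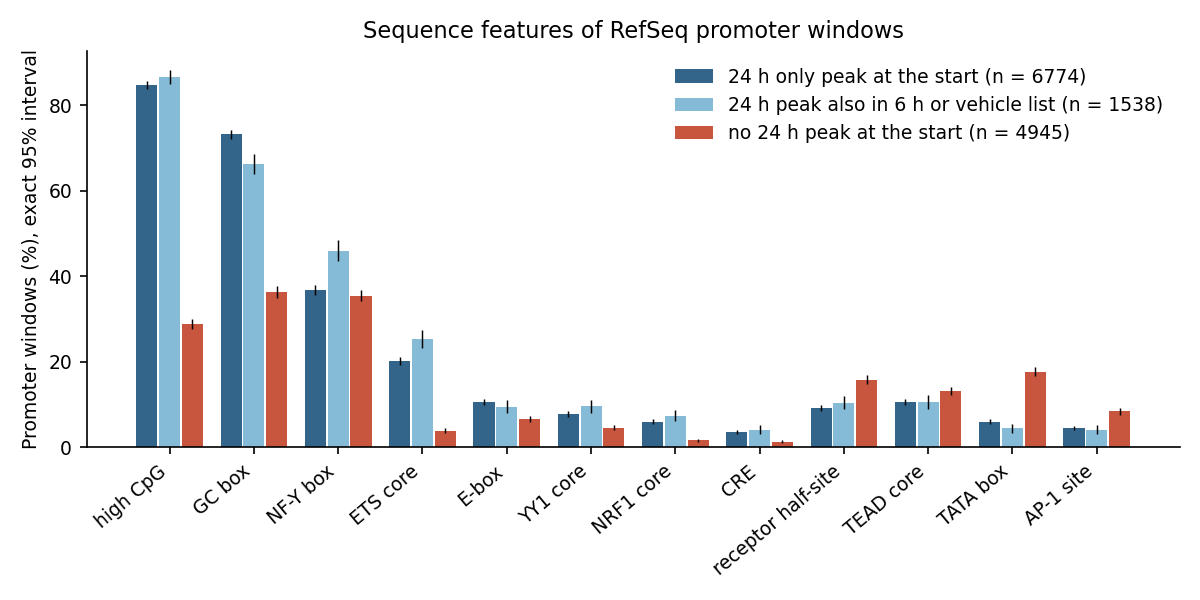
Share of RefSeq promoter windows with each sequence feature (%, bars with exact 95% intervals) for genes with a 24 h only peak at the start (6774), with only a shared 24 h peak (1538) and with no 24 h peak there (4945). High CpG, the GC box and the ETS core are lowest in the last class, and the TATA box, AP-1 site and half-site are highest there. The classes are not matched for CpG content.

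Within the 24 h only peaks the same features went with signal. Windows with CCAAT had peaks of median 8.78 and 10.4 in the 2 columns (2484 genes), and windows without it 7.75 and 8.92 (4290 genes). For the ETS core the medians were 8.83 and 10.6 with it and 7.94 and 9.14 without, and for high CpG 8.37 and 9.70 with it and 6.83 and 7.64 without. From the weakest to the strongest of 5 equal classes by summed signal, CCAAT went from 28.3% to 50.3% of windows, high CpG from 73.8% to 91.4%, and the NRF1 core from 3.99% to 8.71%. The ETS core rose to 26.1% in the next to strongest class and stood at 24.3% in the strongest. The GC box stayed between 71.4% and 73.9% in all 5. The half-site stood at 9.89% for the weakest peaks and at 9.82% for the strongest.

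**Figure D4:**
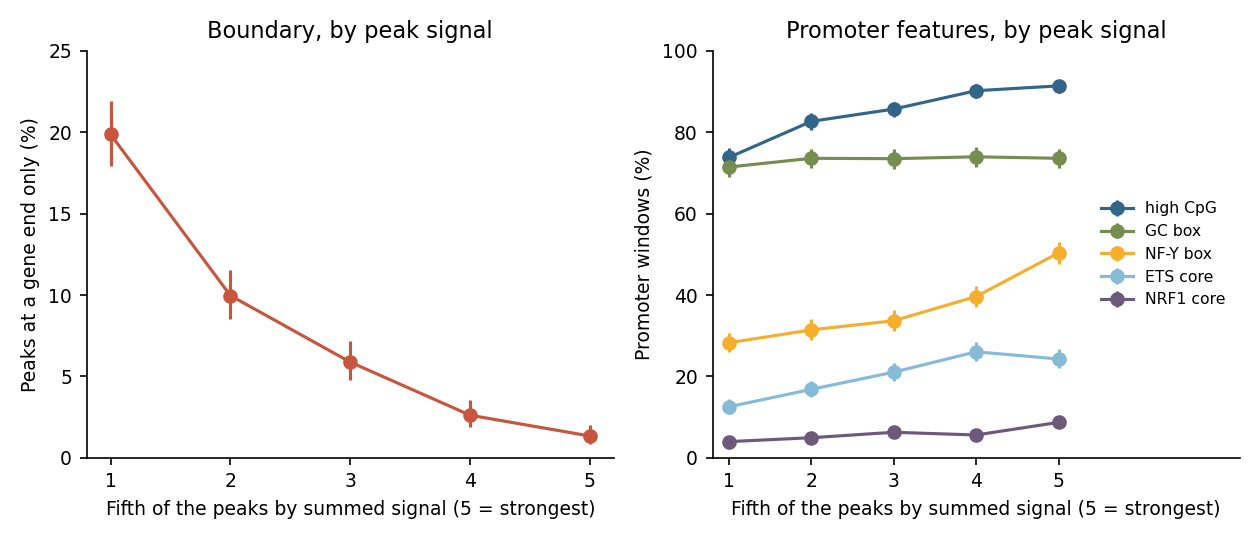
Left, share of 24 h only gene-end peaks that lie near a gene end only, in 5 equal classes of summed signal. Right, share of promoter windows with each feature among genes with a 24 h only peak at the start, in 5 equal classes of that peak's signal. Bars are exact 95% intervals. End-only peaks fall from 19.9% to 1.34%, the NF-Y (CCAAT) box rises from 28.3% to 50.3%, and the GC box is flat.

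The share of genes with a 24 h only gene-end peak differed between gene lists, beside 50.8% of all genes. Over 38 lists, 10 had the whole interval of their share above 50.8%: RNA polymerase II, general transcription factors, Mediator, splicing, translation initiation, RAB GTPases, vesicle traffic, ubiquitin E2 enzymes, peroxins and numbered zinc finger genes. In 8 lists it lay below, and 20 lists included 50.8%, among them both tRNA synthetase lists, RNA polymerases I and III, the exosome, nucleoporins, DNA repair, autophagy and SWI/SNF. The lists were chosen with earlier results of these data known, so the counts describe them and are no independent evidence.

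For transcription, 11 of the 12 RNA polymerase II subunits had such a peak (91.7%, 61.5 to 99.8), with POLR2H as the one without. With lists of equal length the count was 1 of 12, where all genes stood at 13.1%. POLR2I, a small subunit, was the strongest, at 11.7 and 17.5 in the columns, followed by POLR2D (8.54 and 10.8). Among general transcription factors 33 of 44 had one, 7 of the others had only a shared 24 h peak, and GTF2E1, a TFIIE subunit, led with 17 and 20.4. GTF2B had 14.1 and 21.0, and TBP, the TATA-binding protein, had 8.51 and 13.5. Mediator, which links activators to polymerase II, had 22 of 28, led by MED23 (14.2 and 23.1). Of the splicing factors 29 of 42 had one and 12 more had only a shared peak, with SF3B5 (15.8 and 18.3) and SNRPF (14.2 and 19.9) the strongest. Numbered zinc finger genes had 327 of 509 (64.2%, 59.9 to 68.4), led by ZNF174 (19.3 and 19).

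For translation and traffic, 40 of 53 initiation factors had a 24 h only peak, led by EIF5B (14.1 and 22), whose summit lay 910 bp upstream of the start. RAB GTPases had 46 of 63 and the COP, SEC, STX and VPS genes of vesicle traffic 60 of 83. Ubiquitin-conjugating E2 enzymes had 27 of 34, led by UBE2T (13 and 17.9), and 4 of 34 with lists of equal length. Peroxins, which build peroxisomes, had 16 of 18, with PEX3 (13.5 and 20.8) among the strongest. Among 20 cytosolic tRNA synthetase genes 12 had a 24 h only peak and 7 more had only a shared one, so 19 had a 24 h gene-end peak of either kind, and 12 of 17 mitochondrial ones had a 24 h only peak. The intervals of these shares were 36.1 to 80.9 and 44.0 to 89.7. With lists of equal length the counts were 9 of 20 and 8 of 17, where all genes stood at 13.1%. In DNA repair and Fanconi genes the count was 28 of 42 (66.7%, 50.5 to 80.4), led by PALB2 (17.9 and 17.5), a partner of BRCA2, and ERCC5 (15.4 and 18), a repair nuclease. With lists of equal length it was 13 of 42.

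Gene families used in few cell types had the lowest shares. Olfactory receptors had 22 of 392 (5.61%, 3.55 to 8.37), beta-defensins 4 of 39, bitter taste receptors 2 of 25, keratin-associated proteins 15 of 94, clustered protocadherins 9 of 53 and HOX genes 8 of 39. Potassium channel genes had 27 of 95 (28.4%, 19.6 to 38.6). None of 13 interferon alpha genes had one, for which the interval reaches 24.7%. These peaks were weak as a rule, with a median summed signal of 9.33 for HOX genes and 9.94 for olfactory receptors, against 16.9 over all genes with a 24 h only peak. The 22 olfactory receptor genes shared 20 distinct peaks.

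**Figure D5:**
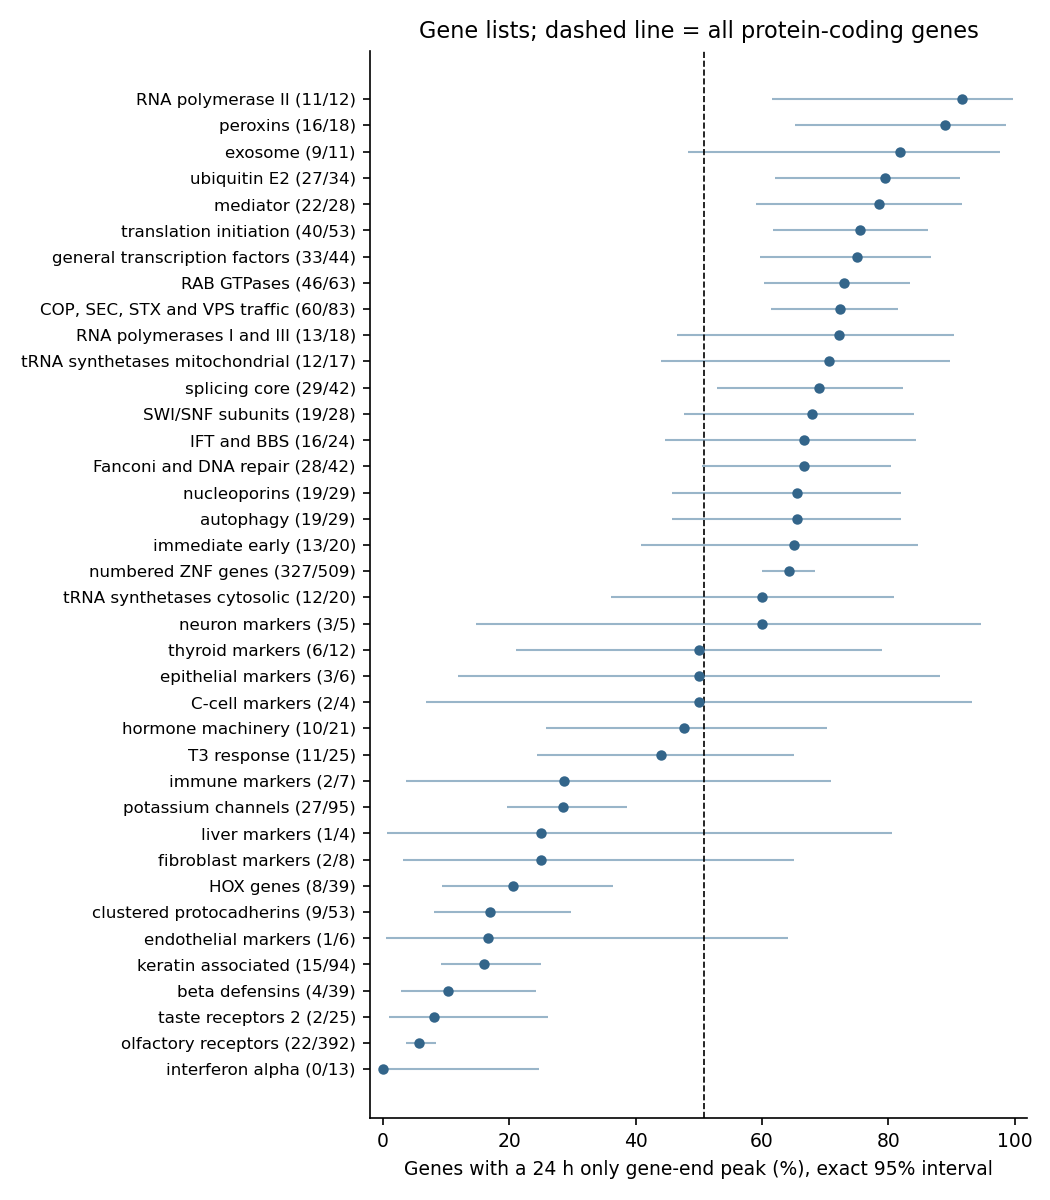
Share of the genes of each of 38 lists that have a 24 h only gene-end peak (%, points) with exact 95% intervals, and the number of genes in brackets. The dashed line is the 50.8% of all protein-coding genes. RNA polymerase II and peroxins stand highest, and olfactory receptors and interferon alpha lowest.

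With the full lists, genes of thyroid hormone action stood near the share of all genes. Of 21 genes for hormone receptors, transporters, deiodinases and cofactors, 10 had a 24 h only gene-end peak (47.6%, 25.7 to 70.2). With lists of equal length the count was 1 of 21, where all genes stood at 13.1%. With replicate summits within 100 bp it was 6 of 21, where all genes stood at 36%. The receptors THRA and THRB and the partner RXRA had no 24 h gene-end peak, while RXRB did. All 3 deiodinases, which activate or inactivate the hormone, had none. The coactivator NCOA3 had 13.1 and 13.5, the corepressor-bound deacetylase HDAC3 9.26 and 11.9, the coactivator subunit MED1 7.69 and 8.91, and the transporter SLC16A10 9.06 and 6.97. Of 25 genes known to respond to T3 in various tissues 11 had one (44.0%, 24.4 to 65.1), with PPARGC1A (6.77 and 12.6), UCP2 (7.01 and 12.3) and KLF9 among the strongest. HR, a corepressor gene and a classical target of the hormone in brain and skin, had none. With lists of equal length 0 of the 25 had a 24 h only peak, and with replicate summits within 100 bp 6 of 25 did.

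SWI/SNF subunits had 24 h only peaks at 19 of 28 genes (67.9%, 47.6 to 84.1), and 3 more, ACTL6A, SMARCE1 and SS18, had only a shared 24 h peak. The tissue-restricted DPF3 was the strongest (11.8 and 15.1), followed by SS18L1, whose stronger peak lay 348 bp past its end (13.7 and 12.5), and the core subunit SMARCC1 (11.1 and 13). SMARCA4 had 8.08 and 9.71, and ARID1A, the ARID-domain subunit of the BAF form, 5.17 and 6.52, with its summit at -433.5 bp from the start. With lists of equal length 3 of 28 had one, where all genes stood at 13.1%. Immediate early genes, which serum and stress induce, had 13 of 20 with the full lists, led by JUN (12.1 and 12.9) and JUND (7.72 and 14), and 1 of 20 with lists of equal length.

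The labelled cell type was set against markers at gene ends. Of 12 thyroid follicular markers 6 had a 24 h only peak (50%, 21.1 to 78.9): TSHR, the iodide and chloride transporter SLC26A4 (9.86 and 10.1), the lineage factors HHEX (12.1 and 7.19), FOXE1 (9.63 and 6.26) and NKX2-1 (6.21 and 4.86), and DUOXA2 at its end (8.36 and 8.38). PAX8, a thyroid lineage factor, had a 24 h peak shared with the 6 h list. TG and SLC5A5 (thyroglobulin and the iodide symporter), products that define the differentiated thyrocyte, had no 24 h gene-end peak, and neither had DUOX2 and IYD. The count of 6 in 12 is near the 50.8% of all genes, but it was 1 in 12 with summits within 250 bp of a boundary (34.3% of all genes) and 1 in 12 with lists of equal length (13.1%). Of 6 epithelial markers 3 had one, KRT8 and KRT18 through the same peak (11.2 and 9.12) and EPCAM (5.66 and 3.61). The replicate summits of the KRT8 and KRT18 peak lay 739 bp apart. The epithelial count was 0 of 6 with replicate summits within 100 bp (36% of all genes) and 0 of 6 with lists of equal length (13.1%).

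Markers of other cell types were as follows. Fibroblast markers had 2 of 8, endothelial 1 of 6 (KDR, 9.32 and 8.90), immune 2 of 7, C cell 2 of 4, neuronal 3 of 5 and liver 1 of 4. PTPRC, PECAM1, COL1A1, CALCA and ALB, each defining for its cell type, had no 24 h gene-end peak. Among genes used in nearly all cells, B2M, a subunit of class I antigen presentation, had 12.6 and 14.4 at its start, and ACTB, the cytoskeletal actin, had 5.59 and 4.37 at a boundary of unassigned strand.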

How the data were processed

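Per the labels, ATAC-seq libraries came from nuclei of 50000 cells each. Per the submitters' processing notes, CASAVA 1.7, Trim Galore, Bowtie2, MACS2, DiffBind and hg38 (GRCh38) were used; settings, Tn5 shift and read filters are not given there. The authors deposited 3 lists, 1 per group, in the 20-column IDR layout. The signal the authors deposited is summed over 2 replicate columns without sample names, and its normalisation is not stated. The deposited score is the scaled IDR, and the deposited −log10 of the IDR corresponds to at most 0.05. No counts are given, so depth is unknown.

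Here summits were the mean of both replicate summits, and genes, strands and promoter windows came from RefSeq (GRCh38.p14, 19974 protein-coding genes, strand for 15812, outermost boundaries, so inner starts are not counted). Shares carry exact Clopper-Pearson 95% intervals. Python 3.11.15, numpy 2.4.6, pandas 2.3.3, scipy 1.17.1 and matplotlib 3.10.9 were used. Tested on simulated data, the code recovered 100% of 600 planted overlaps and of 600 planted boundary positions, and its 6303 overlaps of 24 h with 6 h peaks equalled those of bedtools 2.31.1. The members, the 38 gene lists and the alternatives were chosen with earlier results of these data known. Named genes followed a rule: the 12 strongest peaks, up to 4 genes per list by signal, the peaks at each threshold, the 5 strongest with both boundaries, shared boundaries or an end only, the 5 widest and narrowest, the 5 genes with most peaks, and a fixed set of hormone, thyroid and reference genes; not all are printed, and some genes the rule selects are not reported here. Genes named outside this rule, such as RXRB, POLR2H, ACTL6A and PTPRC, are list members picked after their values were seen.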

Additional observations from a re-analysis of the deposited data

How the results depend on the processing

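No paired analysis was possible because the results come from no test and the replicate columns carry no sample number. Limiting all lists to equal length moved most values: 2204 peaks at 2614 genes, 98.6% at starts, 72.9% of summits upstream, a median width of 948 bp, replicate summits 37 bp apart, 0.091% sharing a base with an earlier peak, and 90.9% high-CpG windows. With 250 bp in place of 1 kb there were 6357 peaks, 97.2% at starts, 70.0% upstream, 875 bp wide, 42 bp apart and 88.6% high CpG. An IDR of at most 0.01 gave 94.2% at starts, 61.3% upstream, 928 bp and 86.3% high CpG. Replicate summits within 100 bp gave 67.8% upstream, 806 bp and, by construction, 29 bp. With no shared base allowed, the share with one was 0 by construction. Leaving out each replicate column's summit gave 59.4% to 61.3% upstream. The main values were 92.1% at starts and 59.6% upstream. For equal length, fewer peaks entered by construction; otherwise the cause was not tested. Of 38 lists, 21 stood above the share of all genes, 17 with equal length and 24 with the stricter IDR. Of 343 other values over 7 settings, 263 stayed the same and 80 moved, 43 of them under equal length; a gene count moved if it changed by over 1.5 times, a share if it left its main interval. Depth is unknown, so absence from a list has no limit of detection.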

Other observations

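Small RNA genes also lay in these peaks. Of 1560 miRNA hairpins of the RefSeq table, 52 lay wholly inside 49 of the 24 h only gene-end peaks. No count for other peaks stands beside it, so it shows nothing particular to these peaks. The hairpin of MIR4444-1 was inside the peak of HNRNPA3, an RNA-binding protein gene, with signals of 11.4 and 22.7 in the replicate columns. MIR933 was inside the peak of ATF2 (12.6 and 14.9), a gene for a CRE-binding factor. MIR137, a miRNA studied in neurons, was inside a weak peak (5.01 and 3.48).

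The share of genes with a 24 h only gene-end peak differed among chromosomes. It was highest on chromosome 6, at 59.8% (56.7 to 62.8), and lowest on chromosome 21, at 42.3% (35.9 to 48.8), and chromosome 5, at 44.4% (41.1 to 47.7). Chromosome 5 had the highest share of genes with a 6 h gene-end peak, 22.1%, and its share with any 24 h gene-end peak was 65.3%. Chromosome X had the lowest share with a 6 h peak, 2.48%, with 45.0% for 24 h only peaks and 47.4% for any 24 h peak.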
